A study of Mus musculus with 3 samples.

Results

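The replication-dependent histone genes lie in clusters and encode the H1, H2A, H2B, H3 and H4 proteins that package newly made DNA. Members were taken as the protein-coding genes whose symbol starts with Hist1h, Hist2h, Hist3h or Hist4h, and 67 of 55536 annotated genes met this rule. They comprise 6 H1, 18 H2A, 18 H2B, 12 H3 and 13 H4 genes. The Hist1 cluster on mouse chromosome 13 holds 54 of them, the Hist2 cluster on chromosome 3 holds 10, the Hist3 cluster on chromosome 11 holds 2, and Hist4h4 on chromosome 6 stands alone. A further 3 entries with the same symbol start are non-coding and were left out. The rule uses symbols and no measured level, though it was set with earlier results of these data known.

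Total RNA was taken from the cytosol of macrophages grown out of C57BL/6J mouse bone marrow, depleted of ribosomal RNA and sequenced. All 3 libraries, replicates 1, 2 and 3, form 1 group. Lipid A is the moiety of lipopolysaccharide recognised by the receptor TLR4. The cells were held in it at 100 ng/ml for 12 h, washed free of it for 12 h, and exposed to it again at 100 ng/ml for 90 min. The labels give all 3 libraries the same donor record, so the spread between them may be partly technical, and without an untreated group the data hold no comparison between conditions. The gene tables hold 40730514, 70484996 and 49726063 expected counts in replicates 1, 2 and 3. All 7 macrophage markers were detected, with a summed level of 4896 to 5767 TPM (transcript abundance per length, scaled to a fixed total). The 21 markers of neutrophils, T and NK cells, B cells, erythroid cells and stroma summed to at most 0.82 TPM per list and library, and Ly6g, Retnlg, Cd3g and Hbb-bs were among those at 0.

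Replication-dependent histone mRNAs are made mainly in S phase and, unlike other mRNAs, normally carry no poly(A) tail. Their 3′ end is formed by a cut just after a short stem-loop, with the help of the stem-loop binding protein SLBP and the U7 small nuclear RNA, and the same stem-loop serves in their translation and decay. Replication-independent variants such as H3.3 and H2A.Z come from ordinary polyadenylated genes outside the clusters and are used throughout the cell cycle. Bone marrow-derived macrophages divide in response to colony-stimulating factor 1, and Lipid A is known to slow that division. Depletion of ribosomal RNA keeps RNA without a poly(A) tail, so the histone mRNAs can be seen in these libraries.

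The stem-loop is the sequence that sets the members apart, and it is shown here for members of each class that are described below. The windows come from the GENCODE M21 transcripts (mm10) and read 5′ to 3′ in the sense of the transcript. The motif searched, on the sense strand, is 16 bases long, with GG at positions 1 and 2, CTT at 5 to 7, T at 9, A at 11, GCC at 14 to 16 and any base elsewhere. The match stands in capitals.
Hist1h1c (chr13:23739507-23739532, +): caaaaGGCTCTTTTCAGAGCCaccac
Hist2h2aa2 (chr3:96239779-96239804, -): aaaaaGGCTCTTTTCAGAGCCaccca
Hist3h2a (chr11:58955167-58955192, +): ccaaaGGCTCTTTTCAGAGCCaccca
Hist1h2bb (chr13:23747198-23747223, +): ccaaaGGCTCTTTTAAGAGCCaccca
Hist1h3e (chr13:23561898-23561923, -): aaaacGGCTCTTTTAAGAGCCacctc
Hist1h4m (chr13:21812124-21812147, +): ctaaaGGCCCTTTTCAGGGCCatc
Hist1h4d (chr13:23581945-23581970, +): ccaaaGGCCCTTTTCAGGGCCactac
Of the 52 members with an annotated 3′ UTR, 44 (84.6%) held the motif, in each case within 100 nt of the stop codon, against 7 of 20931 other coding genes with a 3′ UTR (0.0334%). The stem differed by class. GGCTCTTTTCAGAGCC was the core in 26 members, 3 H1, 10 H2A, 8 H2B and 5 H3. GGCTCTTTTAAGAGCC, as in Hist1h2bb and Hist1h3e, was the core in 6 members of the H1, H2B and H3 classes. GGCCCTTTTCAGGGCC was the core in 7 members, all H4, as in Hist1h4m and Hist1h4d. All 10 H4 members with a match opened with GGCCC and closed with GGGCC, and no match in another class did.

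The annotated transcripts end in different places relative to this stem-loop, and the end decides the length over which reads are counted. In 22 members the transcript ends within 100 nt of the stem-loop, as with 35 nt after it in Hist2h2aa2 and 3 nt in Hist1h4m. In another 22 members it runs further, by 840 nt in Hist1h1c, 1643 nt in Hist3h2a and 770 nt in Hist1h4d. In 15 members only the coding part is annotated, and in 8 a 3′ UTR holds no match. Hist1h2bc belongs to the last kind. Its annotated transcript of 1156 nt joins 2 exons across chr13:23684199-23692908.

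A member was called detected when each library gave it at least 1 TPM. Of the 67 members 40 met this, 12 reached 1 TPM in some libraries only and 15 in none. This is 59.7% of the members, against 40.3% of nuclear protein-coding genes (8825 of 21888) by the same rule. The median level was 1.76 TPM over the members and 0.133 TPM over nuclear protein-coding genes. The class with the most detected members was H4, with 12 of 13. H2A had 10 of 18, H2B 9 of 18, H3 6 of 12 and H1 3 of 6. By cluster, 32 of 54 Hist1, 7 of 10 Hist2 and 1 of 2 Hist3 members were detected, while Hist4h4 was not. The members just inside the threshold were Hist1h2ae with a lowest value of 1.05 TPM, Hist1h2bm with 1.06 TPM and Hist1h4j with 1.09 TPM. Just outside were Hist2h3c2 with a lowest value of 0.97 TPM, Hist2h3c1 with 0.90 TPM and Hist1h3b with 0.81 TPM.

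**Figure D1:**
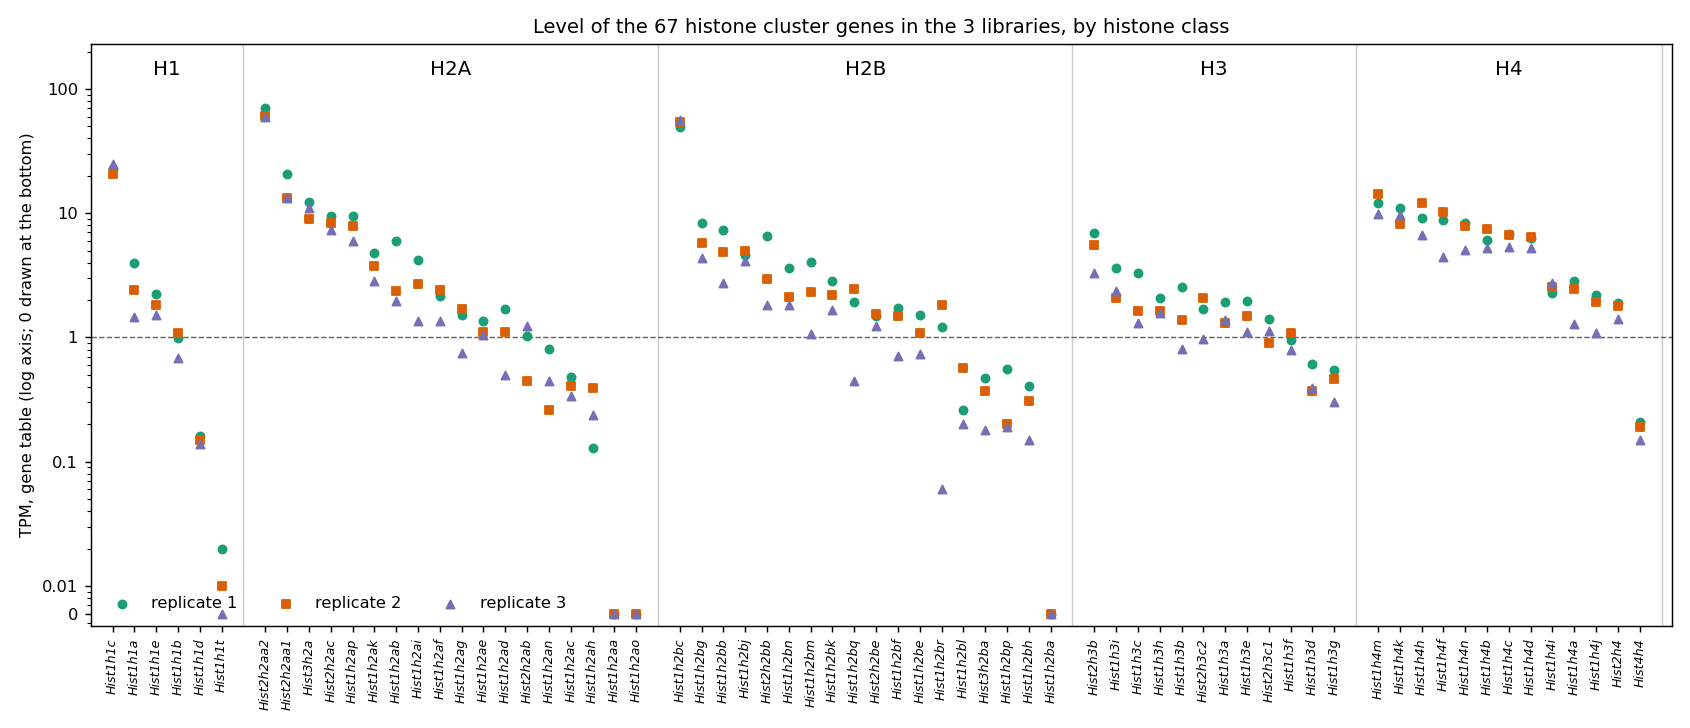
TPM of each of the 67 members in the gene table (log axis, values of 0 drawn at the bottom), ordered by mean level within each class, with 1 symbol per library and the threshold of 1 TPM dashed. Hist2h2aa2, Hist1h2bc and Hist1h1c stand above 20 TPM in every library, and all H4 members but Hist4h4 stand above 1 TPM.

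Summed over all members, the level was 379, 334 and 289 TPM in replicates 1, 2 and 3, a mean of 334 ± 44.8 TPM (SD, n = 3). This was 0.114%, 0.113% and 0.103% of the TPM of nuclear protein-coding genes. Near-identical members differ in effective length and some share reads with genes outside the rule, so the sum still depends in part on how reads were divided. It rested on few genes, since 5 members held 50.1% of it and 20 held 81.3%. H2A made up 37.0% ± 1.96 of the sum, H2B 26.4% ± 0.754, H4 21.8% ± 2.45, H1 8.59% ± 1.19 and H3 6.21% ± 1.00 (SD, n = 3). In the gene table H2A was the largest class and H3 the smallest in each library. H1 and H3 lay close in replicate 1, at 7.91% and 7.30%, and further apart in replicate 3, at 9.97% and 5.33%. The Hist1 cluster held 65.7% ± 1.82 of the summed level, Hist2 30.9% ± 1.38, Hist3 3.35% ± 0.544 and Hist4 0.0548% ± 0.00260.

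Expected counts gave another order, because they are not divided by length. In counts H2B held 34.2% ± 1.81 of the member total, H2A 28.7% ± 2.08, H1 19.4% ± 1.78, H4 12.6% ± 1.86 and H3 5.08% ± 0.930. The annotated 3′ end moved the shares in the same way. Members that end near the stem-loop held 47.4% ± 2.45 of the TPM and 22.9% ± 2.58 of the counts. Members annotated well past it held 20.9% ± 1.35 of the TPM and 43.4% ± 1.96 of the counts. A histone mRNA cut at its stem-loop covers only the first part of such a long annotation, so its TPM depends on which end the cells used. The tables do not give the position of reads within a transcript, and that end was not tested.

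**Figure D2:**
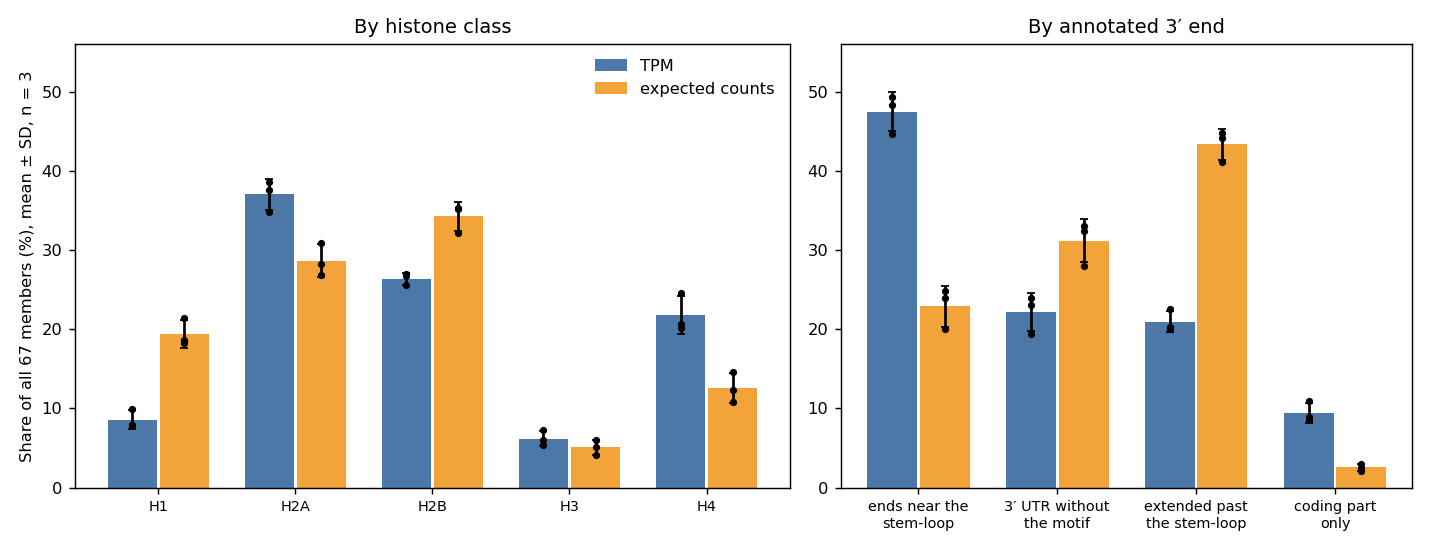
Share of the members' summed TPM (blue) and summed expected counts (orange) by histone class and by annotated 3′ end, as mean ± SD over 3 libraries with each library as a point. The H1 share is 8.59% in TPM and 19.4% in counts, and members that end near the stem-loop hold 47.4% in TPM and 22.9% in counts.

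Among the H1 genes, which encode the linker histones that bind DNA between nucleosomes, Hist1h1c (H1.2) led in every library. Hist1h1c stood at 22.5, 20.9 and 25.0 TPM in replicates 1, 2 and 3 and made up 80.4% of the class. Its transcript is 88.6% unique in 31-base words, so its level does not rest on a division of reads. Hist1h1a (H1.1) stood at 4.01, 2.41 and 1.45 TPM and Hist1h1e (H1.4) at 2.25, 1.82 and 1.51 TPM. Both were highest in replicate 1 and lowest in replicate 3, whereas Hist1h1c was highest in replicate 3 and lowest in replicate 2. Hist1h1b (H1.5) stood at 0.99, 1.09 and 0.69 TPM, just under the threshold. Hist1h1t, the testis H1, had 2 expected counts over all libraries and at most 0.02 TPM.

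The H2A genes were led by Hist2h2aa2 and Hist2h2aa1, a duplicated pair on chromosome 3 with the same transcript sequence over much of their length. Hist2h2aa2 (chr3:96239749-96240276, minus strand) stood at 70.3, 61.1 and 58.9 TPM in replicates 1, 2 and 3. Hist2h2aa1 (chr3:96245497-96246082, plus strand) stood at 20.5, 13.3 and 13.3 TPM. No 31-base word of either transcript was unique to it, so the split between them was left to the authors' estimation, and their sum is given beside them. That sum was 90.8, 74.4 and 72.2 TPM, a mean of 79.1 ± 10.1 TPM (SD, n = 3), above any other member in every library. Antisense and overlapping entries (Gm20632, Gm20633, Gm20634) lie on the same stretch at a mean of 0.353 to 2.20 TPM. No source used here says whether counting used strand, so reads from the pair and its antisense partners cannot be told apart.

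Hist3h2a, on chromosome 11, stood at 12.4, 8.93 and 11.0 TPM, and Trim17, which it overlaps, at 0.073 ± 0.025 TPM (SD, n = 3). Hist2h2ac stood at 9.46, 8.31 and 7.26 TPM and Hist1h2ap at 9.54, 7.93 and 6.02 TPM. Hist1h2ao was listed at 0 TPM in every library, but 93.8% of its 31-base words occur in Hist1h2ap, so the 0 is not evidence that its gene was silent. The other detected H2A members were Hist1h2ak, Hist1h2ab, Hist1h2ai, Hist1h2af and Hist1h2ae, with means of 1.17 to 3.78 TPM. Hist1h2aa, the testis H2A, had no count in any library, and a count of 3 would have been at most 0.317 TPM.

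Hist1h2bc stood out among the H2B genes. It stood at 49.8, 53.9 and 56.4 TPM in replicates 1, 2 and 3 and made up 60.7% of the class. It held 2842, 5957 and 4597 expected counts, more than any other member in each library. The posterior SD of these counts, as the authors deposited it, was 6.36, 9.13 and 5.53 counts. The Hist1h2bc transcript shares 31-base words with 1076 other genes. Whether reads from those genes add to its counts was not tested. Hist1h2bg followed at 8.39, 5.79 and 4.40 TPM, Hist1h2bb at 7.35, 4.87 and 2.75 TPM and Hist1h2bj at 4.59, 4.98 and 4.11 TPM. All of these lay over 5-fold below Hist1h2bc in each library, while their own ranges overlap. Hist2h2bb, Hist1h2bn, Hist1h2bm, Hist1h2bk and Hist2h2be were also detected, with means of 1.42 to 3.78 TPM. Every 31-base word of Hist2h2bb occurs in the antisense entry Gm20628, so its level rests in part on how shared reads were divided. Hist1h2ba, the testis H2B, had no count in any library in the gene table, where 3 counts would have been at most 0.329 TPM.

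Hist1h2bq and Hist1h2br are near-identical copies and illustrate the limit of single-gene values. Hist1h2br stood at 1.21, 1.84 and 0.06 TPM. Its expected counts of 10.8 and 35.3 in replicates 1 and 2 carry a posterior SD, as the authors deposited it, of 15.3 and 29.2 counts. Their sum was 3.14, 4.30 and 0.51 TPM, so replicate 3 was lower than the others also for the pair as a whole.

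H3 was the class with the lowest leading member. Hist2h3b stood at 6.96, 5.55 and 3.28 TPM in replicates 1, 2 and 3. Hist1h3i stood at 3.64, 2.06 and 2.38 TPM, Hist1h3c at 3.29, 1.64 and 1.31 TPM and Hist1h3h at 2.08, 1.62 and 1.57 TPM. Hist1h3a and Hist1h3e were the remaining detected members, with means of 1.55 and 1.52 TPM. In deposited TPM all 6 detected H3 members were higher in replicate 1 than in replicate 3, as were 69.9% of detected nuclear protein-coding genes. Hist2h3b shares every 31-base word with other genes, among them the antisense entry Gm20628 at 0.403 ± 0.163 TPM (SD, n = 3). Hist1h3i and Hist1h3h, both annotated as coding part only, are 6.82% and 5.77% unique. Each shares 85.3% of its words with the other, so their single values rest in part on how shared reads were divided.

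Every H4 gene encodes the same core histone, and 12 of the 13 genes lay between 1.69 and 12.1 TPM on average. In the gene table Hist1h4m led at 12.2, 14.2 and 9.90 TPM in replicates 1, 2 and 3 and made up 16.6% of the class, while the leading gene held 80.4% of H1 and 25.0% of H3. Hist1h4k stood at 11.1, 8.16 and 9.73 TPM, Hist1h4h at 9.09, 12.1 and 6.72 TPM and Hist1h4f at 8.89, 10.3 and 4.46 TPM. Replicates 1 and 3 gave these 4 the same order, and replicate 2 another. In the second quantification, described below, Hist1h4k led with a mean of 7.42 TPM, against 6.17 TPM for Hist1h4m. Hist1h4m is 8.33% unique in 31-base words and shares 91.7% of them with Hist1h4n. Hist1h4n, Hist1h4b, Hist1h4c, Hist1h4d, Hist1h4i, Hist1h4a, Hist1h4j and Hist2h4 followed, with means from 7.09 down to 1.69 TPM. Hist1h4d rested on 352, 702 and 417 counts with a posterior SD of 0, while Hist1h4k, annotated over its coding 312 nt only, rested on 57.3, 95.1 and 77.0 counts over an effective length of 82.7 nt in replicate 1. Hist4h4 was the low exception at 0.21, 0.19 and 0.15 TPM, on 35, 59 and 35 expected counts. It is annotated over 2863 nt, of which 2445 nt lie past the stem-loop, so its TPM depends on which end the cells used.

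Many H2A and H2B genes lie head to head and start from a shared stretch of DNA. With a limit of 500 nt between opposite starts, 12 such pairs were found, each of 1 H2A and 1 H2B gene, with gaps of 175 to 305 nt. The levels within a pair were often far apart. Hist1h2bc stood at 49.8, 53.9 and 56.4 TPM, and its partner Hist1h2ac, which starts 250 nt away, at 0.48, 0.41 and 0.34 TPM. The log2 ratio of Hist1h2bc over Hist1h2ac was 7.04 ± 0.34 in TPM and 5.75 ± 0.34 in counts (SD, n = 3). Their transcripts are 66.5% and 83.1% unique in 31-base words, with 738 and 2037 unique words. Hist1h2bc has a 3′ UTR of 742 nt, and Hist1h2ac is annotated over 2482 nt, of which 2010 nt lie past the stem-loop. Where the unique words lie was not examined, and they may fall mainly in these stretches.

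In 6 pairs with both genes above 0, the higher gene exceeded its partner over 4-fold in every library. Besides Hist1h2bc they were led by Hist1h2ap, Hist1h2bk, Hist1h2ai, Hist2h2ac and Hist1h2bg. The ratios led by Hist1h2ap, Hist1h2bk and Hist1h2ai rest in part on how shared reads were divided. Unique words made up 6.64% of Hist1h2ap and 10.5% of its partner Hist1h2br, and 7.99% of Hist1h2ai and 11.4% of its partner Hist1h2bl. For Hist1h2bk and Hist1h2ah they were 24.7% and 7.47%, and for Hist2h2ac and Hist1h2bg 35.9% and 43.7%. In their lowest library Hist1h2br, Hist1h2ah and Hist1h2bl held only 0.77, 1.3 and 2.35 expected counts. Hist2h2ac over Hist2h2be was 2.55 ± 0.12 in log2 TPM, but −0.51 ± 0.07 in log2 counts (SD, n = 3), since Hist2h2be is annotated over 2620 nt. Hist1h2bg exceeded Hist1h2ae by 2.37 ± 0.29 in log2 TPM. Hist1h2bk over Hist1h2ah was 3.25 ± 1.05 in the gene table and 1.32 ± 0.70 in the second quantification. Hist1h2ak over Hist1h2bn was 0.62 ± 0.22 in log2 TPM and 0.74 ± 0.30 in the second quantification. Hist1h2bf over Hist1h2ad was 0.32 ± 0.26 in log2 TPM, 0.92 ± 0.05 in the second quantification and −0.25 ± 0.27 in log2 counts (SD, n = 3). H2B was the higher member in 6 pairs and H2A in 5, and Hist1h2ba and Hist1h2aa were both at 0 in the gene table. The 6 include Hist1h2bq over Hist1h2ao, whose 0 TPM is not evidence that its gene was silent, and Hist1h2bq itself is 1.74% unique. Among the 5, Hist1h2an over Hist1h2bp was 0.72 ± 0.46 in log2 TPM, but −0.32 ± 0.09 in the second quantification and −0.07 ± 0.05 in log2 counts (SD, n = 3).

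**Figure D3:**
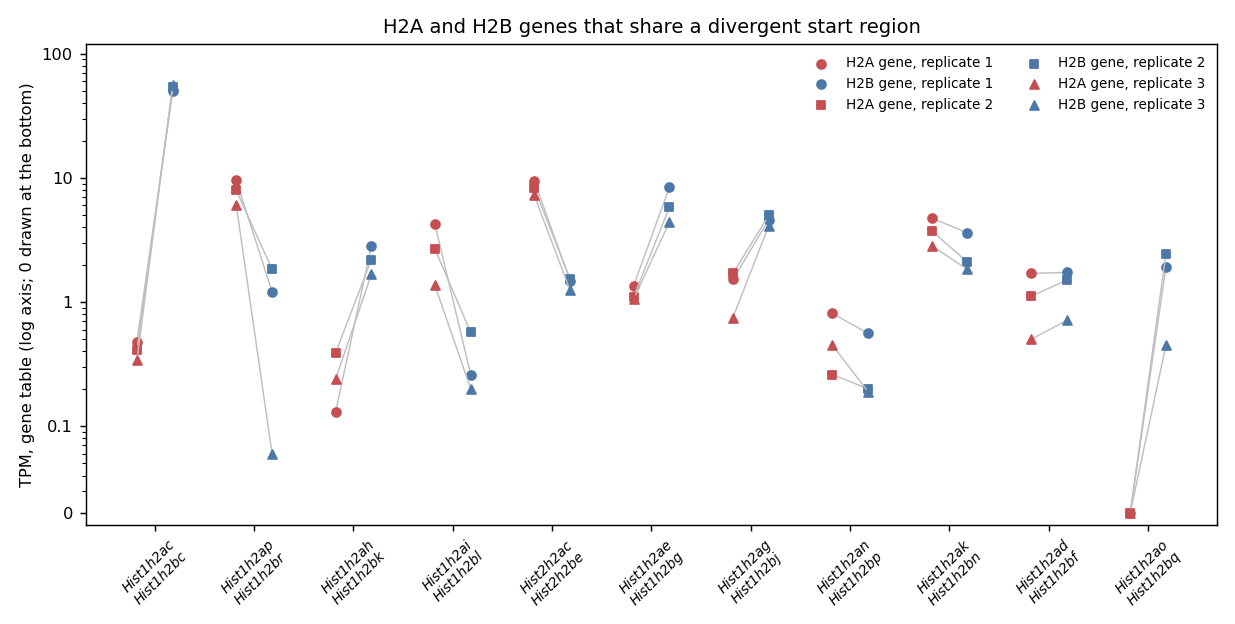
TPM (log axis, values of 0 drawn at the bottom) of the H2A gene (red) and the H2B gene (blue) of each head-to-head pair, with a symbol per library joined by lines, leaving out the testis pair at 0. The left pair, Hist1h2ac and Hist1h2bc, is the widest, with a log2 ratio of 7.04 in favour of Hist1h2bc.

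The promoter windows of 62 of the 67 members were matched in RefSeq (GRCm38.p6), each from 250 bases before to 50 bases after the annotated start. They were searched on both strands for CCAAT and TATAAA, each counted on its own, also where matches overlap. The first window shown covers the interval between the starts of Hist1h2ac and Hist1h2bc, the widest pair, and reaches past both starts. The second belongs to Hist1h4m, the H4 gene with the highest level in the gene table. Matches stand in capitals, and ATTGG is CCAAT on the other strand.
Hist1h2ac (chr13:23683910-23684209, -): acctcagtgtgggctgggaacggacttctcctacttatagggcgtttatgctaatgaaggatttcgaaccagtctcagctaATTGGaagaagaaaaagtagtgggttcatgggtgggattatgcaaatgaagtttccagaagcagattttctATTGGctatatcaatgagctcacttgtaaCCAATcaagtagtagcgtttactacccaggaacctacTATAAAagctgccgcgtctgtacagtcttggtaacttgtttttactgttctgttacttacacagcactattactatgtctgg
Hist1h4m (chr13:21811496-21811795, +): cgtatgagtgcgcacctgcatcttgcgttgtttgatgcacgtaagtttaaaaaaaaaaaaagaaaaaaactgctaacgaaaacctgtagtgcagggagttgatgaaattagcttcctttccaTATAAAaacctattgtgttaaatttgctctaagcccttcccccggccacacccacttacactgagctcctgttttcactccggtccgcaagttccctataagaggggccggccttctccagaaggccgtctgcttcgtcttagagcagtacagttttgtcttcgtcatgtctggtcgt
CCAAT was present in 53 of 62 member windows (85.5%), against 37.9% of 27025 promoters of the same length. All 50 windows of H1, H2A, H2B and H3 genes held it, and 3 of 12 H4 windows did. The windows of a head-to-head pair cover much of the same DNA, so a site there can count for both genes. TATAAA was present in 35 of 62 member windows (56.5%), against 14.2% of all promoters, and H4 held it in 8 of 12. The Hist1h2ac window holds CCAAT 3 times and TATAAA once, and the Hist1h4m window holds TATAAA alone. These are matches of letters in a window, and no binding was measured.

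The replication-independent variants give a level to set the members against. The 67 members summed to 379, 334 and 289 TPM in replicates 1, 2 and 3, and the 12 variant genes to 751, 617 and 620 TPM. The log2 ratio of members over variants was −0.99 ± 0.11 in TPM (SD, n = 3). The classes differed widely in this ratio. For H1 it was 0.48 ± 0.12, for H2A 0.42 ± 0.11 and for H3 −4.75 ± 0.29. The H3 members summed to 27.7, 20.0 and 15.4 TPM, against 630, 505 and 516 TPM for the H3 variants. H3f3a and H3f3b, which both encode H3.3, held nearly all of the H3 variants' sum, with 276 ± 32.9 and 274 ± 36.3 TPM (SD, n = 3). Among all 12 variants H2afz came next at 40.9 ± 5.55 TPM, while H1fx stood at 0.050 ± 0.046 TPM and H2afy3 was listed at 0. In counts the log2 ratio was −0.88 ± 0.09 for H2A and −0.03 ± 0.12 for H1, so the excess of clustered H2A and H1 was seen per length only. For H3 it was −6.18 ± 0.26.

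Genes that act on histone mRNA and protein were mostly present. Of 20 genes for histone mRNA processing and decay, 17 were detected. Tut7, a uridylyl transferase that marks histone mRNA for decay, was highest at 38.9 ± 7.36 TPM, followed by Sympk at 20.3 ± 0.314 TPM and Lsm10, a U7 particle protein, at 13.2 ± 0.339 TPM (SD, n = 3). Slbp stood at 7.25, 7.07 and 6.86 TPM. Rnu7, the U7 RNA, was listed at 0 in libraries built from inserts of 250 to 400 nt, and Zfp473 stood at 0.057 ± 0.006 TPM. Of 16 histone chaperones, 14 were detected, led by Npm1 at 70.3 ± 10.9 TPM, Daxx at 59.1 ± 22.2 TPM and Nap1l1 at 26.3 ± 1.69 TPM. The other 2, Asf1b at 1.10 ± 0.178 TPM and Chaf1a at 0.790 ± 0.053 TPM, fell short of 1 TPM in some or all libraries.

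Of 25 genes for S phase and DNA replication, 18 were detected. Pcna, the sliding clamp of DNA polymerase, stood at 66.0 ± 9.61 TPM, the proliferation marker Mki67 at 17.3 ± 5.25 TPM and Mcm6, a helicase subunit, at 10.2 ± 0.182 TPM. The lowest were Ccne2 at 0.527 ± 0.108 TPM and Cdc6 at 0.333 ± 0.085 TPM. The sums over this list were 165, 144 and 135 TPM in replicates 1, 2 and 3. In bulk RNA, fewer cells in S phase and less histone mRNA per cell cannot be told apart.

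Summed over all members, the share of the expected counts of annotated genes was 0.0307%, 0.0313% and 0.0314% in replicates 1, 2 and 3. To compare the libraries gene by gene, TPM of both quantifications was also rescaled to sum to 1000000 over nuclear protein-coding genes. On that scale 33 of the 40 detected members were higher in replicate 1 than in replicate 3, against 32.6% of all detected nuclear protein-coding genes. The median log2 ratio of replicate 1 over replicate 3 was 0.37 over these members and −0.12 over the coding genes. By counts divided by the total of coding counts it was 29 of 40, against 28.2%. The pair of libraries was picked after the values were seen. Between replicates 1 and 2, 26 of 40 members were higher in replicate 1, against 28.8% of coding genes. In counts it was 20 of 40, against 25.6%, with a median log2 ratio of 0.00 over the members. Between replicates 2 and 3, 29 members were higher in replicate 2, against 55.8% of coding genes, and in counts 32, against 54%. Of the 18 detected S phase genes, 6 were higher in replicate 1 than in replicate 3, and their median log2 ratio was −0.26. Of the 8 detected replication-independent variants, 5 were higher in replicate 1, with a median of 0.04, and in counts 4, with a median of −0.03. For histone mRNA processing and decay it was 3 of 17 detected genes, and for histone chaperones 5 of 14, both on the rescaled TPM.

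Among detected members the widest gaps were those of Hist1h2bm, at 4.03, 2.32 and 1.06 TPM in replicates 1, 2 and 3, and Hist2h2bb, at 6.57, 2.96 and 1.82 TPM. On the rescaled TPM their log2 ratios of replicate 1 over replicate 3 were 1.68 and 1.61. Hist2h2bb holds no unique words, so its ratio rests in part on how shared reads were divided. Hist1h2bc, Hist1h1c and Hist1h4i went the other way, at −0.43, −0.40 and −0.50. Hist2h2aa2 was level at 0.01. The 3 members with the most counts, Hist1h2bc, Hist1h1c and Hist3h2a (−0.08), were thus not higher in replicate 1.

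**Figure D4:**
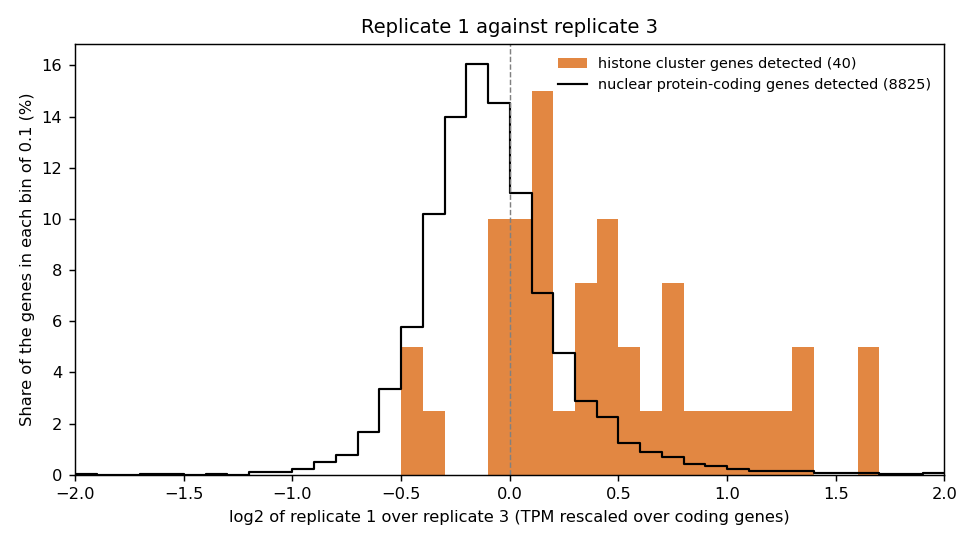
Distribution of the log2 ratio of replicate 1 over replicate 3, on TPM rescaled over nuclear protein-coding genes, for the 40 detected members (orange bars) and all 8825 detected nuclear protein-coding genes (black line), as a share of genes per bin of 0.1. The members' median is 0.37 and that of the coding genes is −0.12.

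No member passed the test of spread between libraries. Each of 12256 genes with enough counts was tested in edgeR, by its residual deviance around 1 mean for all libraries, under the dispersion typical of genes with like counts. At an adjusted p under 0.05 (Benjamini-Hochberg) 1.96% of the genes were called, and 0 of the 55 members tested. At an unadjusted p under 0.05, 5 members were called (9.09% of those tested), against 6.88% of all genes. These were Hist1h2bm, Hist1h2ab, Hist2h2bb, Hist1h1a and Hist1h3b, and the smallest adjusted p was 0.342 for Hist1h2bm. DESeq2's trended dispersion also called 0. In simulated counts for this test, over 12256 genes, 94 of 100 genes given a 4-fold change in 1 library were recovered, and 27 of 100 given a 2-fold change. The changed genes were drawn only from those above a minimum mean count. Some members tested lie below it, such as Hist1h2bn with 32.2, 40.2 and 24.3 counts, and recovery at such counts was not simulated. The shift between libraries is therefore a description, since no member passed on its own. The median coefficient of variation was 25.0% over the detected members and 10.1% over detected coding genes, with no matching for counts.

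A second set of transcript tables quantified the same reads straight from the sequence files, and was summed by gene. As deposited, its TPM was lower for most genes, with a median log2 ratio of the second quantification over the gene table of −0.85 over detected coding genes, averaged over the libraries. Summed member TPM was 186 ± 30.9 in the second quantification and 334 ± 44.8 in the gene table (SD, n = 3). After rescaling over nuclear protein-coding genes the sums were 1096 ± 87.2 and 1102 ± 59.1. At the deposited scale 26 members were detected in the second quantification and 40 in the gene table, and after rescaling 53 and 54, of which 52 were shared. The class shares in the second quantification were within the spread of those in the gene table, with H2A at 37.0% ± 1.43 and H3 at 6.22% ± 1.28 (SD, n = 3). In replicate 1 it placed H3 above H1, at 7.63% and 7.40%.

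Over 2-fold apart in every library were 2 members, Hist1h2ad and Hist2h3c1, against 2.94% of 9131 coding genes with a mean of 1 TPM or more in either quantification. After rescaling only Hist2h3c1 was left, against 0.712% of those genes. Hist2h3c1 stood at 0.215, 0 and nearly 0 TPM in the second quantification and at 1.40, 0.90 and 1.13 TPM in the gene table. All of its 31-base words occur in other genes, among them Gm20634 on the same strand. The sum of Hist2h3c1 and Hist2h3c2 was 0.984 ± 0.398 TPM in the second quantification and 2.73 ± 0.552 TPM in the gene table. Hist1h2ad, Hist2h2aa2, Hist1h2bq, Hist1h4b and Hist1h4m had the next largest log2 ratios of the second quantification over the gene table, from −1.12 to −0.99, below the lower quartile of −0.90 over detected coding genes. Several members annotated as coding part only lay on the other side. Hist1h2af, Hist1h2ak and Hist1h2ai had rescaled log2 ratios of 0.78, 0.71 and 0.69.

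**Figure D5:**
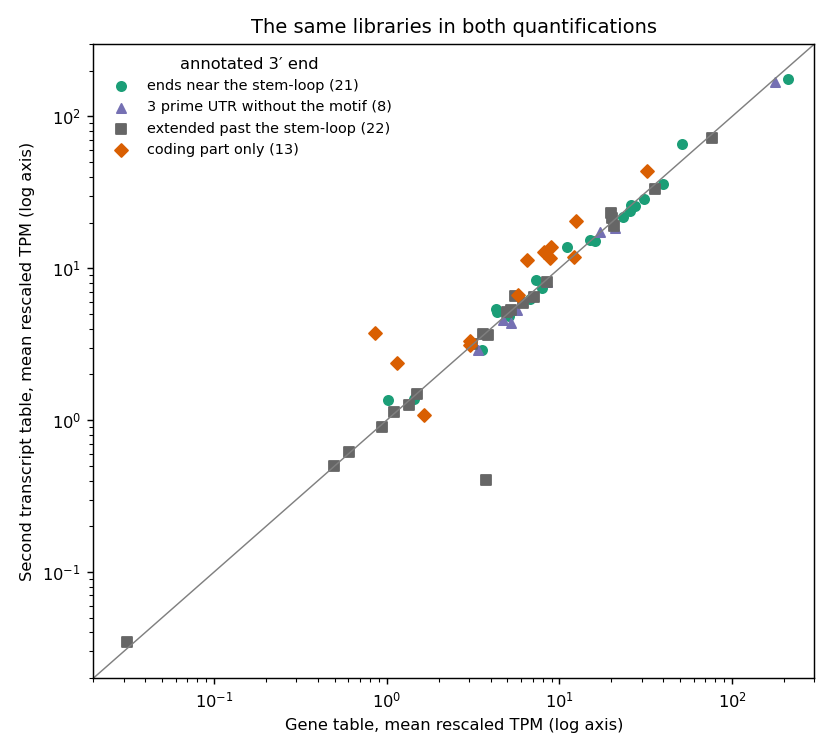
Mean rescaled TPM of each member in the second quantification against the gene table (both log axes), by annotated 3′ end, for members above 0 in both, with the line of equal values. Most members lie along the line, several members annotated as coding part only lie above it, and Hist2h3c1 lies far below it, at 0.405 against 3.77.

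Few members have more than 1 annotated transcript. For Hist1h2be, whose mean was 1.11 TPM, the first transcript tables gave Hist1h2be-202, of 2480 nt, 91.9% ± 7.38 of the gene's isoform share (SD, n = 3). Part of it runs over Hist1h1e on the same strand. For Hist1h2bq the share of the short transcript Hist1h2bq-201 (381 nt) was 62.5%, 74.5% and 12.9% in replicates 1, 2 and 3, and that of Hist1h2bq-202 (1254 nt) was 37.5%, 23.5% and 79.9%. The low value in replicate 3 lay in the short transcript, which Hist1h2br shares. Hist1h2br-202 held 99.93% or more in every library, and Hist2h3c1-202 held 100%.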

How the data were processed

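Total RNA (1 µg per library, inserts of 250 to 400 nt, per the labels) was measured in 3 libraries of 1 group. The authors deposited a gene table and a transcript table per library with expected counts, TPM, credibility bounds of TPM, a posterior standard deviation of the count and isoform percent, per the file headers, and a second transcript table with estimated counts and TPM made from the sequence files. The deposited read-me names mm10 and GENCODE M21, while no source used here names the programs or says whether strand was used. Members, lists and comparisons were chosen with earlier results of these data known. The text names the 4 highest members of each class, every detected member, the members around 1 TPM, those furthest apart between quantifications, the testis members, and the 3 highest and 2 lowest genes of each other list.

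Second-table values were summed by gene. TPM was used as deposited and rescaled to sum to 1000000 over 21888 nuclear protein-coding genes. Expected counts were rounded for edgeR 4.0.16 (TMM, filterByExpr, 1 mean for all libraries, deviance under the trended dispersion) and tested on simulated data, with DESeq2 1.42.0 as an alternative. Shared sequence was counted in 31-base words on either strand of the GENCODE transcripts. A count of 0 allows up to 3 counts. Limits of this kind cover counting error only, since the reads carry no molecular identifiers.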

Additional observations from a re-analysis of the deposited data

How the results depend on the processing

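Detection, the scale of the sums and the shares by counts depended on the processing. At 5 TPM 14 members were detected, in the second quantification 26, against 40 as reported. Summed TPM was 186 in the second quantification, 1102 after rescaling over nuclear protein-coding genes and 1096 after both, against 334 as deposited. In expected counts the shares were 19.4% for H1, 28.7% for H2A, 34.2% for H2B, 5.08% for H3, 12.6% for H4, 68.7% for Hist1, 20.0% for Hist2, 11.1% for Hist3 and 0.257% for Hist4. In the second quantification Hist1 held 67.8% and Hist2 29.0%. The log2 ratio of members over variants was −2.13 in counts, −1.44 with medians of log2(TPM + 1) and −1.83 with medians of log2(TPM + 0.1). The number of members over 2-fold apart between quantifications was 34 at 1.5-fold, 1 with no filter and a pseudocount of 0.1 TPM, 0 with a pseudocount of 1 TPM and 1 after rescaling, and between 1 and 12 with each library left out in turn, the 12 without replicate 2, where the shift between quantifications is smallest, at −0.74. The test of spread called 5 members at an unadjusted p and 0 under every other setting, each library left out in turn included. The alternatives that rescale, and those on the order of libraries, were chosen after seeing the data. The count of members higher in replicate 1 than in replicate 3 lay between 29 and 37 of 40 under these. The share of detected nuclear protein-coding genes moved as well, from 28.2% beside the 29 by counts to 69.9% beside the 37 in deposited TPM. For TMM-scaled counts, with 36 members, and the rescaled second quantification, with 35, that share was not computed. Single-gene values of near-identical copies rest on the authors' division of shared reads, and members of few counts on their counting error. No paired analysis was possible because there is only 1 group.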

Other observations

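The stem-loop motif also stood within 100 nt of the stop codon in 7 coding genes outside the rule. H2afx, a histone variant gene known to make both tailed and stem-loop mRNA, stood at 3.38, 3.46 and 2.68 TPM in replicates 1, 2 and 3. Crlf3, Ddx17 and Snrpa had means of 20.2 ± 3.49, 29.6 ± 2.43 and 15.7 ± 2.86 TPM (SD, n = 3). Mpp2 had a mean of 0.027 TPM, and H2bfm and Nlrp12 were listed at 0. Among entries that overlap members, Gm44313 was listed at 18.7 TPM in replicate 3 on 2.83 expected counts and at 0 in the other libraries.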
